A study of Rattus norvegicus with 24 samples.

Results

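Cdk1 and Ccnb1 are 2 of the 4126 named genes on the array, each measured by 1 probe, taken as the probes whose annotated symbol is Cdk1 (Entrez gene 54237) or Ccnb1 (Entrez gene 25203). The pair was selected on measured scores. By the rule of choice, Cdk1 was higher in CHF than in HYP and CON ventricles and did not follow Acta1, the skeletal alpha-actin gene. The differences of Cdk1 between CHF and the other conditions are therefore descriptions here and carry no test. The study measured total RNA of rat heart ventricles at day 14 on 2-colour arrays, each with 1 ventricle sample against a common reference pool. The right ventricle (RV) was sampled on 6 CHF, 6 HYP and 6 CON arrays and the left ventricle (LV) on 2 CHF, 2 HYP and 2 CON arrays. The series title names monocrotaline, a plant alkaloid that injures lung vessels and thereby loads the right ventricle, along with compensated and decompensated hypertrophy. The sample labels do not spell out CHF, HYP and CON or state which groups were injected, so the conditions are called by these names. They give no dose, strain, age or sex either. Whether each sample came from its own animal is unstated, and the error behind every p-value is the scatter of these samples, part of which may be technical.

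Cdk1 is the kinase that drives cells from G2 into mitosis, and cyclin B1, the product of Ccnb1, is the partner it needs to be active. The pair is switched on by CDC25 phosphatases, held back by WEE1 and MYT1 kinases, and switched off when the anaphase promoting complex has cyclin B1 degraded. Both genes are transcribed late in the cell cycle, and adult heart muscle cells, which have largely left the cycle, express little of either. In tissue RNA the signal of both is usually taken as a sign of dividing or cycling cells of any type. In these bulk samples, more cells of a type and more RNA per cell cannot be told apart.

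The promoters of both genes are shown because the CHF arrays carried the highest mean scores of both, and because cell cycle promoters of this kind are known for CCAAT boxes, bound by NF-Y, and for CHR elements, bound by the DREAM and MuvB complexes. The sequences are the 250 bases before the transcription start in the RefSeq annotation of GRCr8. Capitals mark CCAAT on either strand, the CHR letters TTTGAA on either strand and the E2F letters TTTCGCGC on either strand. The Cdk1 promoter lies at chr20:19265043-19265292 on the plus strand and the Ccnb1 promoter at chr2:33655226-33655475 on the minus strand.
Cdk1: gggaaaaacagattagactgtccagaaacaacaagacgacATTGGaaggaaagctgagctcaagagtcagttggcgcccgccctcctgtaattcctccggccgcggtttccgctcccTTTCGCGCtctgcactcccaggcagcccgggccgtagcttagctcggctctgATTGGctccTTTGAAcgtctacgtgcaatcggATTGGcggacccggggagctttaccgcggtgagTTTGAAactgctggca
Ccnb1: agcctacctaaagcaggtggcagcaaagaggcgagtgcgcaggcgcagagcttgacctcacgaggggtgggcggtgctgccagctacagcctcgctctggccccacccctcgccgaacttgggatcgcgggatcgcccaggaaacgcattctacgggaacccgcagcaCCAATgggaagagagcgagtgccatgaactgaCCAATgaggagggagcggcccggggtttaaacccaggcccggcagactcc
Cdk1 had 3 CCAAT matches, all on the minus strand, and Ccnb1 had 2 on the plus strand. At least 2 matches were found in 9.42% of 33469 rat promoters of the same length. In both genes a pair of CCAAT matches on the same strand began 32 bases apart, at 81 and 49 bases before the start in Cdk1 and at 82 and 50 bases in Ccnb1. A pair at that spacing was found in 0.26% of the promoters, and the spacing was chosen after both sequences were seen. Cdk1 also had 2 CHR matches, which 2.09% of promoters had, and 1 E2F match, which 0.248% had. Ccnb1 had neither TTTGAA nor TTTCGCGC in its window, and other forms of the CHR and E2F letters were not searched. Among 54 promoters of cell cycle list genes on the array, Cdk1 and Ccnb1 included, 16.7% (9) had at least 2 CCAAT matches, these 2 genes among them. At least 2 CHR matches were found in 1.85%, which was Cdk1 alone. An E2F match was found in 3.7% (2), 1 of them Cdk1. No motif overlapped another.

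The deposited values are scores per probe, taken here as sample over reference pool in units close to the SD of the array, and each was set against the median of its array. A score of 0 is thus the array's median, and a difference of 1 is 1 array SD and not a log2 fold change. Scores show how a gene stood against the pool, so Cdk1 and Ccnb1 cannot be compared with each other in level. Arrays held between 2162 and 3658 values, and their number limits the precision. The sources used here name no dyes, and 13 of 276 pairs of arrays correlated below -0.3 across probes, the lowest at -0.530, which leaves the direction of the scores unsettled. Each of these pairs held at least 1 of CHF R10, CHF R14, CHF LV09, CON LV21 and CON LV22, and each comparison was repeated with the sign of these 5 arrays turned. The 3 left ventricle arrays among them correlated at 0.0904 to 0.696 with the other 3 left ventricle arrays. Of 15 cardiomyocyte markers 12 carried values, 8 of them on all 24 arrays, among them Tnnt2, Tnni3, Myl2, Myl3, Ryr2 and Mb.

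Cdk1 stood apart on the CHF arrays of the right ventricle. The score was -0.545 at the lowest, 0.369 at the median and 0.817 at the highest on the 6 CHF arrays, -1.34, -1.10 and -0.713 on the 6 HYP arrays, and -2.03, -1.59 and -0.965 on the 6 CON arrays. Every CHF array lay above every HYP and every CON array, a pattern that 0.938% of the 3199 features tested had in the right ventricle and that the choice of Cdk1 used. CHF lay wholly above CON in 2.81% of features and wholly above HYP in 2.19%. The gap was narrow on 1 array: CHF R11, at -0.545, lay 0.168 above HYP R08, the highest HYP array. On the CHF arrays, 4 of 6 Cdk1 scores were above the array's median, against 0 of 6 on the HYP arrays and 0 of 6 on the CON arrays. The share of an array's values below Cdk1 was 66.8% at the median in CHF (27.4% to 89.5%), 11.5% in HYP (8.38% to 23.7%) and 5.99% in CON (1.17% to 13.6%).

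The mean Cdk1 score was 0.259 ± 0.515 in CHF, -1.06 ± 0.260 in HYP and -1.54 ± 0.407 in CON right ventricles (SD, n = 6 each). The difference was 1.80 ± 0.263 between CHF and CON and 1.32 ± 0.263 between CHF and HYP (SE of the limma fit). On the 2 doubtful right ventricle arrays Cdk1 scored close to 0, at -0.109 on CHF R10 and 0.208 on CHF R14. Turning their sign could therefore move these differences only a little, whatever the true direction. With the sign of both turned the differences were 1.77 and 1.29, and without both arrays 1.91 and 1.42. The remaining contrast was not used to choose the gene: HYP exceeded CON by 0.483 ± 0.263, with a 95% interval of -0.0681 to 1.03, and did not pass (limma adjusted p = 0.9997, unadjusted p = 0.0822). The HYP and CON arrays overlapped. In that comparison 0.281% of features passed, and 1.31% had HYP wholly above CON.

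Ccnb1, the cyclin partner, was measured on 15 of the 18 right ventricle arrays and had no value on HYP R04, CON R21 and CON R22. These are 3 of the 4 right ventricle arrays with the fewest values. On the 6 CHF arrays Ccnb1 scored -0.587 at the lowest, 0.0710 at the median and 0.805 at the highest. On the HYP arrays it scored -0.343 on R01, -1.39 on R03, -0.225 on R05, -1.03 on R06 and -0.731 on R08. On the CON arrays it scored -0.567 on R17, -1.20 on R18, -2.39 on R19 and -1.64 on R20. The groups overlapped: the lowest CHF array, R09, lay 0.0200 below the highest CON array, R17, and below the 2 highest HYP arrays, while the other 5 CHF arrays lay above every HYP and CON array. One of these 5 was CHF R10, which would score -0.805 with its sign turned. CHF R12 at -0.193 and CHF R14 at -0.204 cleared HYP R05, at -0.225, only narrowly. Before centring on the array median, CHF R14 was at -0.351, below HYP R01 at -0.284 and HYP R05 at -0.195.

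**Figure D1:**
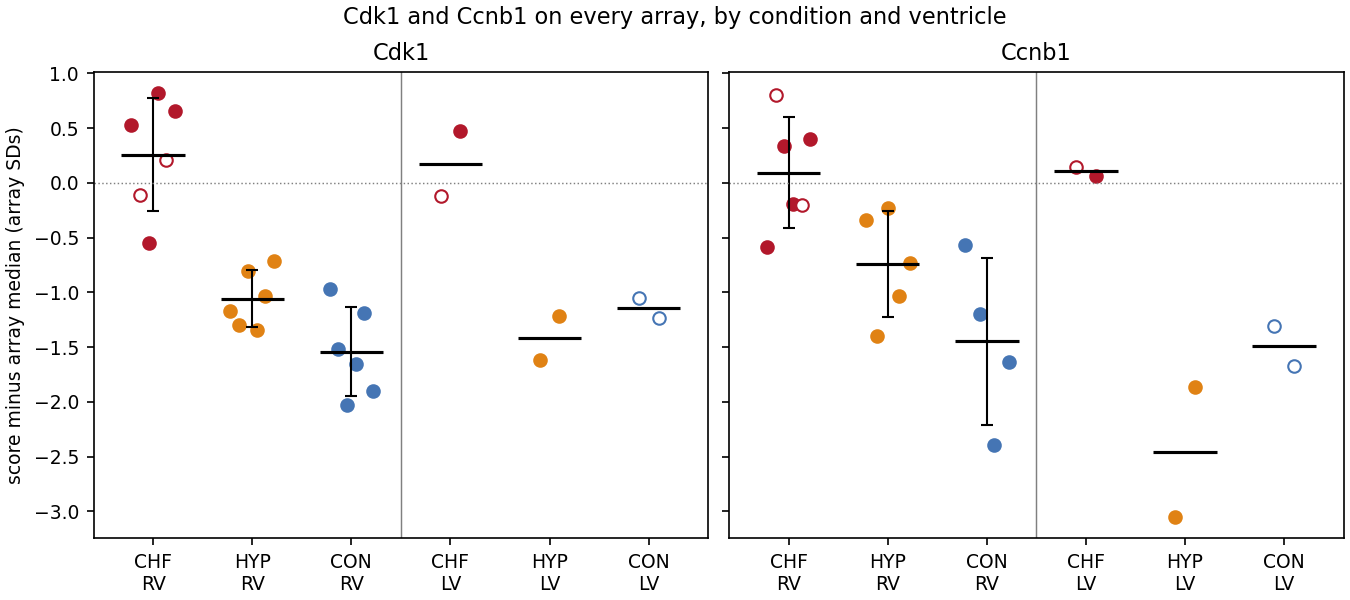
Scores of Cdk1 (left) and Ccnb1 (right) on each array, set against the array's median, in array SDs. Points are arrays, black lines group means and bars SDs where a group has over 2 values. Open points mark the 5 arrays whose direction is in doubt. The 6 CHF right ventricle arrays lie above all HYP and CON arrays for Cdk1. For Ccnb1 5 of 6 do on the centred scores shown, R12 and R14 only narrowly.

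Mean Ccnb1 scores were 0.0927 ± 0.508 in CHF (SD, n = 6), -0.745 ± 0.484 in HYP (n = 5) and -1.45 ± 0.766 in CON (n = 4). CHF exceeded CON by 1.54 ± 0.378, with a 95% interval of 0.739 to 2.34, which did not pass after adjustment over all features (limma adjusted p = 0.0843, unadjusted p = 0.000896, rank 34 of 3199 features by p). In that comparison 0.907% of features passed, 0.875% with CHF higher and 0.0313% with CHF lower. The result passed in 1 of 18 fits that left out an array, at 1.83 without CON R17, and leaving out CON R19 gave 1.23. With the sign of CHF R10 and R14 turned it was 1.34 (limma adjusted p = 0.233), and without both arrays 1.44 (adjusted p = 0.265).

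Between CHF and HYP, Ccnb1 differed by 0.838 ± 0.354, with a 95% interval of 0.0858 to 1.59 (limma adjusted p = 0.938, unadjusted p = 0.0312). No feature passed in that comparison (0% of 3199, with 158 at an unadjusted p below 0.05). Between HYP and CON it differed by 0.703 ± 0.392, with an interval of -0.130 to 1.54 (limma adjusted p = 0.9997). For both genes the right ventricle means ran in the order CHF, HYP, CON. The Ccnb1 neighbours in that order differed by 0.838 and 0.703, more than the pooled SD of 0.563 between arrays of a group. The Cdk1 means differed by 1.32 between CHF and HYP and by 0.483 between HYP and CON, each more than the pooled SD of 0.392. This SD describes single arrays and is no test of the means.

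In the left ventricle the CHF arrays were the highest for both genes and the HYP arrays the lowest on average, as long as the scores were taken as deposited in sign. Cdk1 scored -0.122 on LV09 and 0.470 on LV15 in CHF, -1.62 on LV03 and -1.21 on LV05 in HYP, and -1.05 on LV21 and -1.23 on LV22 in CON. Ccnb1 scored 0.149 on LV09 and 0.0600 on LV15 in CHF, -3.05 on LV03 and -1.87 on LV05 in HYP, and -1.31 on LV21 and -1.67 on LV22 in CON. Both genes thus had both CHF arrays above all 4 HYP and CON arrays of the left ventricle. With 2 arrays a group, 3.89% of the 2494 features tested there had that pattern. CHF lay above CON in 14.6% of them, CHF above HYP in 15% and HYP above CON in 16.9%. The pattern rests on CHF LV09, CON LV21 and CON LV22, whose direction is in doubt. With their sign turned, Cdk1 would score 0.122 on CHF LV09, against 1.05 on CON LV21 and 1.23 on CON LV22, and Ccnb1 -0.149 on CHF LV09, against 1.31 and 1.67 on the CON arrays. Neither gene then had the pattern, which 3.69% of features had.

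For Cdk1 the left ventricle difference was 1.31 ± 0.427 between CHF and CON and 1.59 ± 0.427 between CHF and HYP (SE, n = 2 and 2), given without a test. For Ccnb1 the CHF and HYP arrays differed by 2.56 ± 0.564. That value is a description too, since it was already known to have the smallest p of its comparison. The tested difference of Ccnb1 between CHF and CON was 1.59 ± 0.564, with a 95% interval of 0.413 to 2.78, and did not pass (limma adjusted p = 0.9998, unadjusted p = 0.0108), and 0% of features passed in that comparison, with 22 at an unadjusted p below 0.05. HYP against CON gave -0.274 ± 0.427 for Cdk1 and -0.969 ± 0.564 for Ccnb1 (limma adjusted p = 0.996 for each), with 0% of features passing and 46 at an unadjusted p below 0.05. After CHF LV09, CON LV21 and CON LV22 were turned in sign, the differences between CHF and CON became -0.844 for Cdk1 and -1.53 for Ccnb1. The differences between CHF and HYP were then 1.71 and 2.41, so the left ventricle contrast with HYP kept its sign and that with CON did not.

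Across the 6 groups, Cdk1 means fell into an upper pair, CHF RV at 0.259 and CHF LV at 0.174, and a lower set of 4. The lower set ran from HYP RV at -1.06 over CON LV at -1.14 and HYP LV at -1.41 to CON RV at -1.54. Neighbours within the pair and within the set differed by 0.0808 to 0.274, less than the pooled SD of 0.392, and the step between them was 1.23. Ccnb1 means ran from CHF LV at 0.105 and CHF RV at 0.0927 over HYP RV at -0.745, CON RV at -1.45 and CON LV at -1.49 to HYP LV at -2.46. Of these neighbours, the CHF pair and the CON pair differed by less than the pooled SD of 0.563. Both orders depend on the sign of the doubtful arrays. With it turned, CON LV had the highest mean of the 6 groups for both genes, at 1.14 for Cdk1 and 1.49 for Ccnb1, and the CHF LV means were 0.296 and -0.0445.

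Averaged over the conditions, the right and left ventricles did not differ detectably in Cdk1, at 0.0124 ± 0.201 (RV minus LV, 95% interval -0.406 to 0.431, limma adjusted p = 0.974), while 18.3% of 2494 features passed in that comparison, 11.8% higher and 6.54% lower in the right ventricle. Ccnb1 was at 0.581 ± 0.273 (interval 0.00851 to 1.15, limma adjusted p = 0.133). With the signs turned these values were -0.799 and -0.429. The CHF effect on Ccnb1 against HYP was smaller in the right than in the left ventricle by 1.73 ± 0.659. That value carries no test, since it holds the left ventricle difference known beforehand. Against CON the CHF effect on Ccnb1 differed by -0.0538 ± 0.671 (RV minus LV, limma unadjusted p = 0.937). Its HYP effect against CON was larger in the right ventricle by 1.67 ± 0.679 (limma adjusted p = 0.9997, unadjusted p = 0.0237), and that of Cdk1 by 0.757 ± 0.494 (limma adjusted p = 0.9997). None of the tested differences passed, and 0% of features did in each comparison (34, 68 and 62 at an unadjusted p below 0.05). After the 5 arrays were turned, both HYP effects differed between the ventricles. The difference was 4.65 for Ccnb1 (limma adjusted p = 0.00176) and 3.04 for Cdk1 (limma adjusted p = 0.00277), and 33 of 2494 features passed. Both CON left ventricle arrays were among the 5, so the turn itself made their low scores high. These p-values cannot tell which direction is right.

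The labels give 6 left ventricle samples the same number as a right ventricle sample of the same condition, without stating that they share an animal. In these pairs Cdk1 differed by -0.666 to 0.652 (RV minus LV), with the right ventricle higher in 3 of 6. With the sign of the doubtful arrays turned, the range was -3.13 to 0.408, with the right ventricle still higher in 3 of 6. For number 15 of CHF the scores were 0.652 in the right and 0.470 in the left ventricle, and for number 9 they were 0.530 and -0.122. Ccnb1 could be compared in 4 pairs, from -0.736 to 1.66, and was higher in the right ventricle in 3 (-0.438 to 1.66 with the sign turned). Both HYP pairs had a wide gap in Ccnb1, at 1.66 for number 3 and 1.64 for number 5.

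Within the groups of the right ventricle no correlation of the genes was detected, and so few arrays could miss a moderate one. Deviations from the group means correlated at Pearson r = 0.0982 (permutation p = 0.751) and Spearman rho = 0.0893 (permutation p = 0.780) over the 15 arrays with both values, two-sided, with arrays permuted within groups. Without CHF R11 and CON R17, the arrays with the most extreme Cdk1 deviations, r was -0.00298. Among the 6 CHF arrays alone, r was -0.508 (exact permutation p = 0.3) and rho -0.257 (exact p = 0.658), while the HYP and CON arrays, with 5 and 4 values, were below the 6 required here for a correlation. The highest Ccnb1 score in CHF, 0.805 on R10, thus came with a Cdk1 score of -0.109, and the highest Cdk1 score, 0.817 on R12, with a Ccnb1 score of -0.193. With its sign turned R10 would hold the lowest Ccnb1 score in CHF, -0.805, with a Cdk1 score of 0.109. The correlation among the CHF arrays alone was not repeated with the sign of R10 and R14 turned. Adjusted over these 4 correlations by Benjamini-Hochberg, each p was 0.780.

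**Figure D2:**
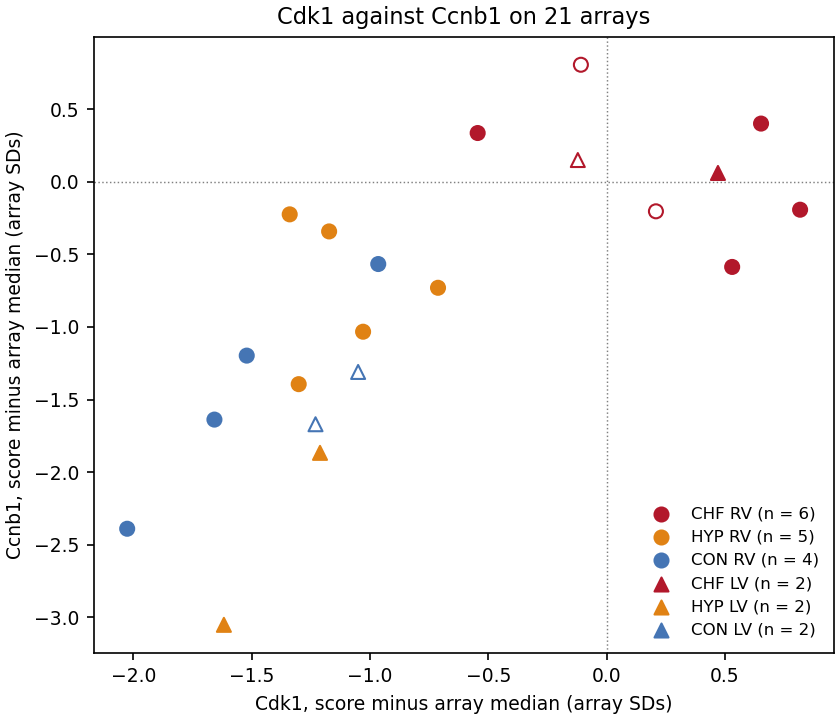
Ccnb1 score against Cdk1 score, both set against the array's median in array SDs, on the 21 arrays with both values; circles are right and triangles left ventricle arrays, and open symbols the 5 arrays whose direction is in doubt. The 8 CHF arrays lie to the right of all HYP and CON arrays with the scores as deposited in sign, and within the 6 CHF right ventricle arrays the correlation of -0.508 did not pass a test.

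The genes with scores most like Cdk1 over the 18 right ventricle arrays were taken from 1481 other named genes with a value on each, as a description, since arrays share their group and their scaling. Itpka, an inositol trisphosphate kinase gene, had r = 0.862 and Dynlt1, a dynein light chain gene, r = 0.841. Tpm3, a tropomyosin gene, followed at 0.805, Bdkrb1, the bradykinin B1 receptor gene, at 0.804 and Chga, the chromogranin A gene, at 0.792. Acta1, which is known to be raised in loaded ventricles, was at 0.714, rank 20, and at 0.580, rank 54, with the sign of CHF R10 and R14 turned. Although Cdk1 was chosen for not following Acta1, the right ventricle means of Acta1 ran in the same order. They were 1.69 in CHF, 0.450 in HYP and -2.66 in CON. Itpka and Dynlt1 kept ranks 1 and 2 with the sign of CHF R10 and R14 turned (0.833 and 0.812), while Chga went to rank 34. The lowest were Inha, the inhibin alpha gene, at -0.766 and Slc5a11, a myo-inositol cotransporter gene, at -0.760. With the sign turned these were at -0.294, rank 1127, and -0.470, rank 1352.

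On the deviations from the group means the order was different. Nme6, a nucleoside diphosphate kinase family gene, led at r = 0.747, followed by Cish, a cytokine signalling inhibitor, at 0.730, Aldh3a1, an aldehyde dehydrogenase gene, at 0.682, Hsd17b12 at 0.627 and the haemoglobin gene Hbb-b1 at 0.603. Acta1 was at 0.0941, rank 533, and at 0.260, rank 181, with the sign turned, a value given only as a description since Cdk1 was picked for not following it. With the sign turned, Nme6 was at 0.632 and Hsd17b12 at 0.614, but Cish, Aldh3a1 and Hbb-b1 were at 0.258, 0.208 and 0.246. The lowest were Selp, the P-selectin gene, at -0.682 and Ndufv2, a complex I subunit gene, at -0.597 (-0.630 and -0.493 with the sign turned).

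Ccnb1 had other neighbours over its 15 right ventricle arrays, out of 1651 genes. Gnb1, a G protein beta subunit gene, had r = 0.823, Chga 0.820, Clock, a circadian transcription factor gene, 0.784, Trpv4, a cation channel gene, 0.743 and Tpm3 0.740. Cdk1 was at 0.702, rank 13, and Acta1 at 0.677, rank 23. Gnb1 was at 0.367 with the sign turned and Clock at 0.738. The lowest were Ssbp3 at -0.764 and Tcf21, a fibroblast transcription factor gene, at -0.707 (-0.614 and -0.336 with the sign turned). On the deviations Ccnb1 stood closest to Chka, a choline kinase gene, at 0.675, Stk10 at 0.628, Chga at 0.615, Cd151 at 0.601 and Dnah6 at 0.588. It stood farthest from the potassium channel gene Kcnc1 at -0.686 and the growth factor gene Pdgfa at -0.669. With the sign turned, Chka, Stk10 and Chga were at 0.608, 0.603 and 0.585, but Cd151 and Dnah6 at 0.302 and 0.387. Kcnc1 and Pdgfa were then at -0.641 and -0.507.

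The rest of the cell cycle machinery was thinly covered. Of 165 genes in 8 cell cycle lists, 64 had a probe, 61 a value on any array and 16, Cdk1 among them, a value on all 24 arrays. Coverage was uneven among genes of the same role. Among mitotic genes Kif11, a spindle kinesin, had a value on 0 arrays, Plk1, the polo-like kinase of mitosis, on 1, Bub1b, a spindle checkpoint kinase, on 7, Cdc20, the activator of the anaphase promoting complex, on 11 and Birc5, survivin, on 12, while Aurkb had one on 22, Pttg1, securin, on 23 and Plk3 on 24. Among replication genes Pola1 and Pold1 had a value on 0 arrays and Mcm6 on 2, while Pcna and Tyms had one on 24. In the right ventricle fits 46 list genes other than Cdk1 and Ccnb1 could be tested.

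In CHF against CON right ventricles 0 of these 46 passed limma in either direction, 4 had an unadjusted p below 0.05 with CHF higher and 0 with CHF lower, against 166 and 106 of all 3199 features. Their median difference was 0.135, with 27 of 46 above 0, against -0.0992 and 1319 of 3199 over all features. The largest by test statistic were Plk2, a stress-responsive polo-like kinase, at 1.16 ± 0.337 (n = 5 and 6, limma adjusted p = 0.185), Ccnd1, cyclin D1 of the G1 phase, at 1.10 ± 0.400 (n = 5 and 6, adjusted p = 0.350) and Rfc2, a clamp loader of DNA replication, at 1.56 ± 0.628 (n = 2 and 3, adjusted p = 0.525). Plk2 averaged 0.559 ± 0.655 in CHF (SD, n = 5), 0.108 ± 0.430 in HYP (n = 6) and -0.601 ± 0.541 in CON (n = 6). The lowest were Chek2, a checkpoint kinase, at -0.695 ± 0.421, Foxm1, the transcription factor of G2 and mitosis genes, at -0.663 ± 0.475, and Nfya, an NF-Y subunit, at -0.519 ± 0.377 (limma adjusted p = 0.680, 0.732 and 0.734).

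By role, DNA replication genes had a median difference of 0.465 over 10 tested genes, Cdk1 substrates 0.261 over 6 and the other partners and activators of Cdk1 0.180 over 3. Mitotic kinases and spindle genes had 0.0869 over 6, cell cycle transcription factors 0.108 over 7, inhibitors and brakes of the kinases -0.0403 over 7, and cyclins and kinases of G1 and S phase -0.118 over 7. Of Cdk1's regulators, Cdk7, the activating kinase, differed by 0.618 ± 0.472 and Cdc25a by 0.180 ± 0.369 (limma adjusted p = 0.745 and 0.917). Ccnh, the cyclin of Cdk7, went the other way, at -0.352 ± 0.311 (limma adjusted p = 0.787). Wee1, with values on 8 arrays, and Cdc25b, on 7, could not be tested. Pcna, the sliding clamp of replication, differed by 0.259 ± 0.327 (adjusted p = 0.862).

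In CHF against HYP right ventricles 0 of 46 passed limma, 2 had an unadjusted p below 0.05 with CHF higher and 0 with CHF lower (106 and 52 of all features), and the median was 0.0410 against -0.0442 over all features. Nfyb, an NF-Y subunit, was at 0.696 ± 0.276, Rfc2 at 1.40 ± 0.596 and Aurkb, the Aurora kinase of cytokinesis, at 0.731 ± 0.470 (limma adjusted p = 0.938, 0.938 and 0.940). At the other end were Nfya at -0.628, Ccnh, the cyclin of Cdk7, at -0.471 and Cdc25a, an activating phosphatase, at -0.455. In HYP against CON 0 of 46 passed limma, 1 had an unadjusted p below 0.05 in each direction (81 higher and 50 lower of all features), and the median was 0.00908 against -0.0456. The ends were Plk2 at 0.709, Ccnd1 at 0.692 and Rpa2, a single-strand DNA binding subunit, at 0.882, and Ccnc at -0.909, Foxm1 at -0.682 and Nfyb at -0.434.

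**Figure D3:**
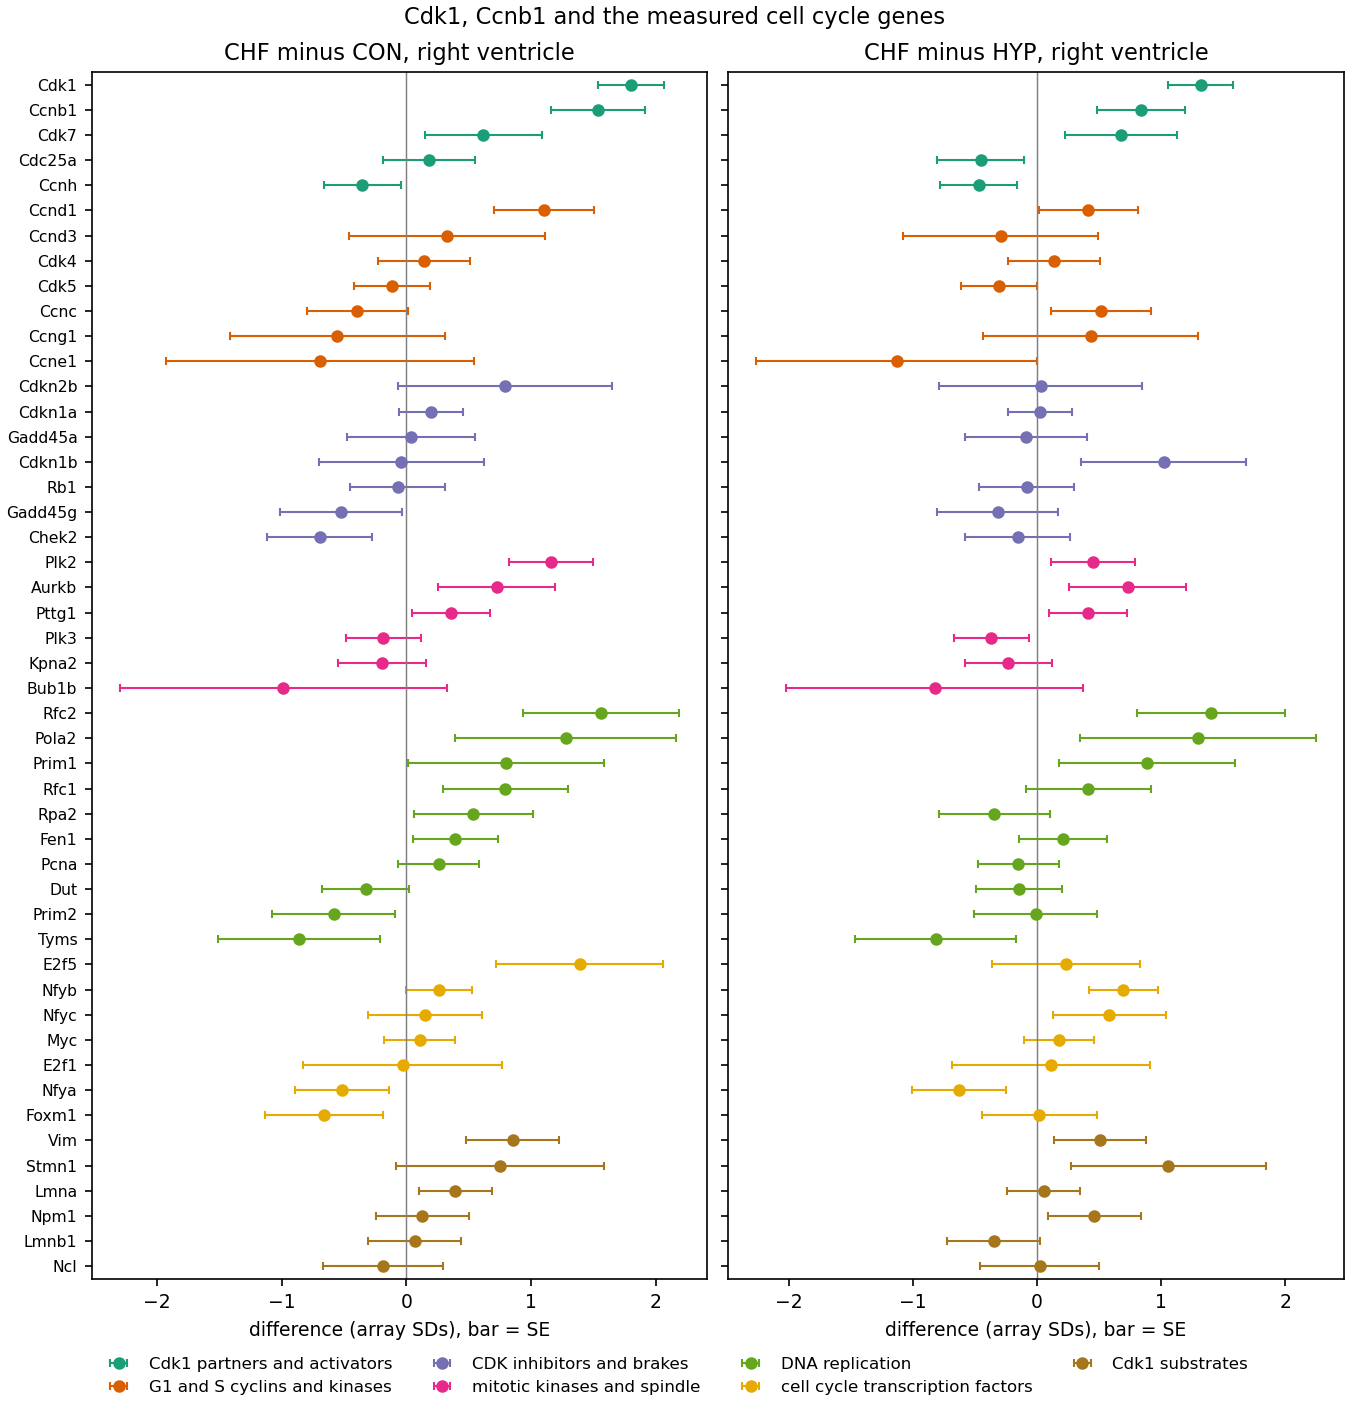
Difference between CHF and CON (left) and between CHF and HYP right ventricles (right) in array SDs for Cdk1, Ccnb1 and the 46 other cell cycle genes tested, coloured by list, with SE bars. Cdk1, which was chosen on these differences, lies at 1.80 on the left and 1.32 on the right, and Ccnb1 at 1.54 and 0.838. The other genes scatter on both sides of 0, with 27 of 46 above 0 in each panel. Rfc2, with 2 CHF values, lies above Ccnb1 in both, at 1.56 and 1.40. On the right Pola2 at 1.29 and Stmn1 at 1.06, among others, also lie above Ccnb1.

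In the left ventricle 35 list genes were tested and 0 passed limma in any comparison of conditions. With the sign turned 1 did, Ccnd1 in HYP against CON, at -3.19 (limma adjusted p = 0.0245), where 96 of 2494 features passed. In CHF against HYP 3 had an unadjusted p below 0.05, against 75 of all 2494 features, all 3 with CHF higher: Ccnd1 at 1.91 ± 0.614, Aurkb at 2.11 ± 0.748 and Lmnb1, a nuclear lamin that mitotic kinases phosphorylate, at 1.32 ± 0.625 (n = 2 and 2, limma adjusted p = 0.958 for each). Aurkb scored 0.904 and 1.67 in CHF and -1.01 and -0.642 in HYP. The lowest were Ccnh at -0.922, Cdkn2b, a CDK4 inhibitor, at -2.19 and Rb1, the retinoblastoma gene, at -0.771. The median was 0.153 against 0.0140 over all features. In CHF against CON no list gene had an unadjusted p below 0.05, and the median was 0.107 against -0.00200. Aurkb, Vim and Lmnb1 were highest, at 1.55, 1.11 and 1.12 (0.123, -0.151 and 0.182 with the sign turned), and Rfc1, Cdkn2b and Cdkn1a lowest, at -0.946, -1.56 and -0.291. In HYP against CON none did either, with a median of -0.0485 against 0.0393; Cdc25a, Plk3 and Dut were highest, at 0.893, 0.676 and 0.622, and Ccnd1, Cdkn1a and E2f1 lowest, at -0.974, -0.506 and -1.50.

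Between the ventricles 3 of 35 list genes passed limma, all higher in the right ventricle, with 18.3% of all features passing. They were Dut, the dUTPase gene, at 1.45 ± 0.261, Vim, the intermediate filament gene vimentin, at 1.16 ± 0.291 and Ncl, the nucleolin gene, at 1.24 ± 0.369 (n = 18 and 6, limma adjusted p = 0.00177, 0.0133 and 0.0276). Dut averaged 0.480 to 0.808 in the right and -1.12 to -0.498 in the left ventricle groups. The call of Vim ended without CHF LV09 or CON LV22, at 1.01 to 1.31 over all fits without an array. That of Ncl ended without HYP LV03, CHF LV09, CHF LV15, CON LV21 or CON LV22, at 1.07 to 1.41. With the signs turned none of the 3 passed, at 0.493, 0.624 and 0.189. Ccng1, Nfyc and Pola2 were lowest, at -1.87, -0.968 and -1.42, and did not pass (limma adjusted p = 0.0656, 0.0680 and 0.0862).

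Markers of cells that could carry cell cycle RNA were set beside these values. In CHF against CON right ventricles 1 of 6 smooth muscle and pericyte markers passed limma, Acta2 (median 0.335), and 1 of 12 cardiomyocyte markers, Acta1 (median 0.0231), with 0.907% of all features passing and a median of -0.0992. None passed among 7 fibroblast (median -0.479), 5 leukocyte (median -0.0563), 4 erythroid (median 0.990) or 2 endothelial markers (median -0.353). At an unadjusted p below 0.05, 3 of 6 smooth muscle markers had CHF higher and 2 of 7 fibroblast markers had CHF lower. The smooth muscle and pericyte markers Myh11 and Pdgfrb went the other way, at -0.117 and -0.134, as did the erythroid marker Alas2, at -0.127. Of the defining endothelial genes, Vwf had a value on 0 arrays and Pecam1 on 9. Acta2 differed by 1.58 ± 0.252 (limma adjusted p = 0.00132) and Acta1 by 4.35 ± 0.573 (limma adjusted p = 0.000157, n = 6 and 6 for both). All marker values here take the scores as deposited in sign. Acta1 scored 1.72 on CHF R10 and 1.39 on CHF R14, whose direction is in doubt. With their sign turned, 9 features passed in this comparison in place of 29. The mean score of Acta2, Tagln and Myh11 ranged from 0.0913 to 0.950 on CHF, from -0.204 to 0.550 on HYP and from -0.742 to 0.163 on CON right ventricle arrays. The mean of the haemoglobin genes Hba-a1, Hbb and Hbb-b1 ranged from -3.92 to -0.740 on CHF, from -5.36 to -2.0 on HYP and from -6.65 to -1.67 on CON right ventricle arrays, and in the left ventricle from 2.27 to 3.17 on CHF, from -6.55 to 5.43 on HYP and from 3.27 to 5.23 on CON arrays. The mean of 6 fibroblast markers was 0.135 in CHF, 0.162 in HYP and 0.663 in CON right ventricles. For 3 leukocyte markers it was -0.292, -0.529 and -0.170, and for 8 cardiomyocyte markers -0.0333, 0.0980 and -0.258, in the same order. The part of these cells in the Cdk1 and Ccnb1 scores was not tested.

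**Figure D4:**
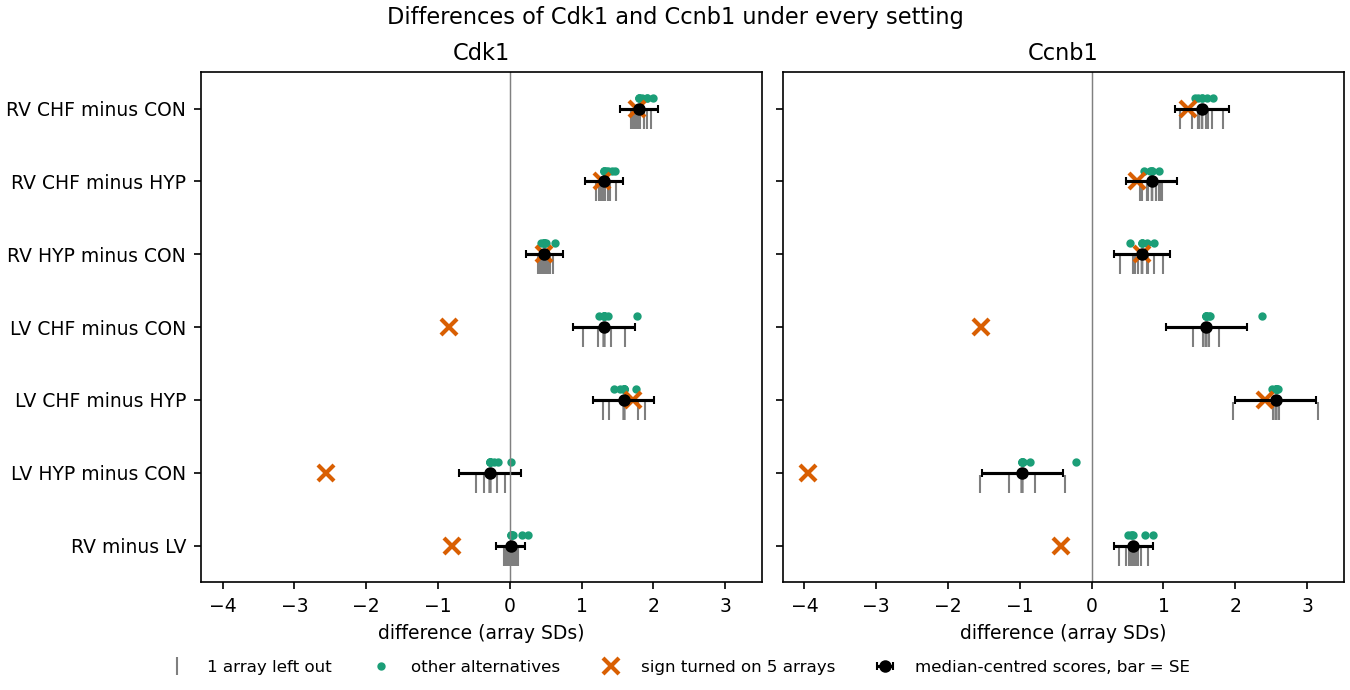
Differences of Cdk1 and Ccnb1 in array SDs in each comparison, named at the left as RV or LV with its conditions, from the median-centred scores (black, with SE), with 1 array left out (grey), under the other alternatives (green) and with the sign of 5 arrays turned (orange). The right ventricle values stay on 1 side of 0 in all settings, and those of CHF minus CON in the left ventricle change sign when the 5 arrays are turned.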

How the data were processed

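The authors deposited a score per probe and array for 24 2-colour arrays of rat ventricle RNA against a reference pool. The sources used here do not state how the deposited scores were made (scanner, dyes, background, normalization, filter). They are signed, with a mean near 0 and an SD near 1 on each array. Array medians ran from -0.2 to 0.217, so each array was centred on its median. Of 4803 probes 4278 had 1 gene symbol in the platform annotation, 4 several and 521 none, and probes of a gene were averaged, giving 4651 features. Groups came from the sample titles. Comparisons used limma 3.58.1 in R 4.3.3 (lmFit and eBayes) on the 18 right ventricle arrays, or on all 24 for the left ventricle and between ventricles, with at least 2 values in each group and Benjamini-Hochberg adjustment over all features at 0.05. Left ventricle groups of 2 arrays were assumed to vary like the others. The fits were tested on simulated data.

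The members, lists and tests were chosen with earlier results of these data known. Named list genes are the 3 with the highest and the 3 with the lowest moderated statistic in each comparison, all that passed, a few regulators of Cdk1 and Pcna named after their values were seen, and, by likeness, the 5 highest and 2 lowest correlations. Correlations used SciPy 1.17.1 and 100000 permutations. The alternatives were the uncentred scores, quantile normalization, the sign turned on 5 arrays, CHF R10 and R14 left out, complete features only, single probes, array weights (statmod 1.5.0 for the block), the 2 groups alone, a replicate block and each array left out.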

Additional observations from a re-analysis of the deposited data

How the results depend on the processing

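The Cdk1 differences of the right ventricle kept their direction in every alternative run, at 1.69 to 1.96 for CHF minus CON, 1.21 to 1.48 for CHF minus HYP and 0.387 to 0.599 for HYP minus CON with 1 array left out. Those of Ccnb1 did too, at 1.23 to 1.83, 0.675 to 0.974 and 0.389 to 0.997, and CHF minus CON passed without CON R17. In the left ventricle, leaving out 1 array gave 1.02 to 1.61, 1.29 to 1.88 and -0.477 to -0.0710 for Cdk1 and 1.41 to 1.77, 1.97 to 3.16 and -1.56 to -0.377 for Ccnb1 in the same order of comparisons. RV minus LV was -0.0862 to 0.111 for Cdk1 and 0.384 to 0.779 for Ccnb1. The differences of the Ccnb1 effects between ventricles were -0.368 to 0.240 for CHF minus CON, -2.32 to -1.13 for CHF minus HYP and 1.08 to 2.26 for HYP minus CON.

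With the sign of 5 arrays turned, the left ventricle gave -0.844 for Cdk1 and -1.53 for Ccnb1 in CHF minus CON. HYP minus CON passed at -2.55 (limma adjusted p = 0.00558) and -3.95 (adjusted p = 0.00295), as did 96 features in all. Both CON left ventricle arrays were among those turned, so the turn itself made their low scores of both genes high. RV minus LV was then -0.799 and -0.429, and the difference between ventricles of the Ccnb1 effect was 2.87 for CHF minus CON and 4.65 for HYP minus CON, where it passed (adjusted p = 0.00176). Quantile normalization gave 1.78 for Cdk1 in CHF minus CON and 0.0159 in HYP minus CON of the left ventricle, and RV minus LV of Ccnb1 passed at 0.855 (limma adjusted p = 0.0414). The cause of these shifts was not tested, apart from the turned sign itself. Among list genes of the left ventricle the turned sign reversed Vim (-0.151), Rfc1 (0.626) and Cdkn1a (0.506) in CHF minus CON, Ccnh (0.238) and Rb1 (0.526) in CHF minus HYP, and Cdc25a (-1.47), Plk3 (-1.43), Dut (-1.62), Cdkn1a (0.555) and E2f1 (0.675) in HYP minus CON. Cdkn2b without an array ran from -3.99 to 0.876 and from -4.62 to 0.244.

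The correlation of Cdk1 with Ccnb1 deviations was -0.173 to 0.232 without 1 array, 0.190 on uncentred scores, 0.193 with the sign turned and 0.225 without R10 and R14. On the scores themselves it was 0.702, a value that holds the CHF difference Cdk1 was chosen on and is given without a test. Ccnb1 had no value under the filter for complete features.

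The replicate block (consensus correlation 0.231) changed no call of Cdk1 or Ccnb1. Ccnb1 CHF minus CON in the left ventricle was 1.64 with it. Deviations of same-numbered arrays correlated at -0.254 to 0.367, above 0.1 in 3 of 6 pairs. HYP LV03, HYP LV05 and CHF LV15 each correlated best with their own number, at 0.297, 0.367 and 0.311. CHF LV09, CON LV21 and CON LV22, whose direction is in doubt, did not. With 2 arrays a group, left ventricle deviations mirror each other, so the 6 correlations are not independent. The labels state no pairing, and the numbers were not taken to pair the samples.

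Counts of features passing depended on the setting. For CHF against CON of the right ventricle, 29 became 16 to 38 without 1 array, 9 with the sign turned and 18 without R10 and R14. For HYP against CON, 9 became 3 to 9, 1 with the sign turned and 0 with the 2 groups alone. For CHF against HYP, 0 became 1 with the sign turned or array weights. In the left ventricle HYP against CON, 0 became 96 with the sign turned. Between ventricles 457 became 140 to 683 without 1 array, 0 with the sign turned, 1079 with array weights, 744 with the block and 863 without R10 and R14, and the list genes among them, 3, became 1 to 8, 0, 18, 8 and 9, with 5 for complete features, 6 uncentred and 7 after quantile normalization. For the differences of effects between ventricles 0 became at most 8 without 1 array, and with the sign turned 9 for CHF minus CON and 33 for HYP minus CON.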
